A study of Mus musculus with 6 samples.

Results

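ISG15 and the enzymes that attach it to proteins and take it off again were followed at the RNA level in the brain cortex of mice after microglia depletion. The 5 genes, Isg15, Uba7, Ube2l6, Herc6 and Usp18, were chosen by symbol for their roles in this pathway, with earlier results of these data known. All 5 were found among the 23366 genes of the table. ISG15 is a small ubiquitin-like protein that is made in response to type I interferon and becomes linked to other proteins, a step called ISGylation. UBA7 is its activating enzyme (E1), UBE2L6 carries it on (E2), and HERC6 is the main ligase (E3) in the mouse, while USP18 is the protease that removes it and also limits signalling from the type I interferon receptor. In the brain, microglia, astrocytes, neurons and endothelial cells can all respond to type I interferon.

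Frontal cortical tissue of 3 microglia-depleted mice, taken at d10 post depletion and named A4, A5 and A6 here, was compared with that of 3 littermate control mice (A1, A2 and A3) by bulk RNA-seq, with 1 library for each mouse. Depleted mice were CX3CR1-CreERT2+/- iDTR+/-, so that Cre could switch on the diphtheria toxin receptor, and control mice were CX3CR1-CreERT2+/- and lacked iDTR. All were C57BL/6 by their labels and had received tamoxifen, and the study describes its mice as matched for age and sex, with no age given for these 6. Depleted mice had also received diphtheria toxin, and the sources used here do not state whether control mice had, so that the toxin, the iDTR allele and the depletion cannot be told apart. Cre was driven by the CX3CR1 promoter, which is active in microglia and also in other macrophages and in monocytes. The comparison asks which genes differed in the cortex 10 days after depletion.

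Levels are FPKM, fragments per kilobase of transcript scaled to the size of the library, so that they can be compared between genes. Differences are on the log2(FPKM + 1) scale, depleted minus control, which understates the change of genes at low FPKM. They come from a limma fit over the 14385 genes whose mean over the 6 mice reached 0.5 FPKM, and a gene was called at an adjusted p under 0.1. All 5 members passed this filter. With 3 mice in each group, 0.1 is the smallest p that an exact permutation test can reach. Depth was about 14.6 (A1), 20.4 (A2), 18.3 (A3), 13.8 (A4), 7.10 (A5) and 11.2 M fragments (A6), as estimated from the spacing of low FPKM values. The study's methods state a read coverage that every sample was to reach, whereas these estimates count fragments behind the gene values and differ between samples. A5 was by them the least precise library.

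Depleted mouse A4 stood apart from the other 5 libraries, so the fold changes of the members and the medians of the gene lists are given with and without it. Other counts, distances between profiles and marker values include A4 unless stated. Its Pearson correlation with the other mice over all genes tested had a median of 0.972, against 0.982 to 0.986 for each of the other 5, and genes are not independent replicates. The sum of the Y-linked genes Uty, Kdm5d, Ddx3y and Eif2s3y was 5.56 FPKM in A4 and no more than 0.16 FPKM in any other mouse, while Xist was 30.9 FPKM in A4. In control mouse A3, Xist was 4.74 FPKM, against 45.2 to 46.7 in the other control mice. The Y-linked RNA of A4 thus stood beside Xist, and A3 had little of either, so that the sex of these mice could not be read from their RNA. What set A4 apart was not tested, and in this mouse an effect of the depletion and one of the library cannot be told apart.

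The cortical label was checked against marker genes. Slc17a7, the vesicular glutamate transporter of cortical projection neurons, was between 325 and 383 FPKM in every mouse, and Neurod6, Tbr1 and Cux2 were present in all 6. Snap25, a presynaptic protein of neurons, was between 1031 and 1254 FPKM. The libraries also held transcripts of the choroid plexus, a tissue that lines the ventricles: Ttr was 173 (A1), 314 (A2) and 160.1 FPKM (A3) in control mice and 64.3 (A4), 40.9 (A5) and 59.9 FPKM (A6) in depleted mice. Control mouse A3 also held transcripts of the pituitary gland: the hormone genes Prl, Gh and Pomc were 3549, 1191 and 269 FPKM in A3, and at most 30.9, 10.8 and 9.42 FPKM in any other mouse. A3 was the lowest control mouse for Isg15, Ube2l6, Herc6 and Usp18, and the part of this other tissue in its values was not tested. Pmch, a neuropeptide of the hypothalamus, was between 30.9 and 66.9 FPKM in all 6 mice, so that transcripts typical of other regions were present in every library.

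Promoter sequences show how the members differ in the letters that interferon-activated factors are known to bind. They are shown because the members did not all differ from control mice to the same degree. Whether these letters bear on the differences was not tested, and no RefSeq promoter was available for Usp18. Of the 5 members, 4 had a RefSeq promoter (GRCm38.p6), and the 250 bases before the start site were searched on both strands for the core of the interferon-stimulated response element (ISRE), GAAANNGAAA, for the shorter core bound by interferon regulatory factors (IRF), AANNGAAA, and for the gamma-activated site (GAS), TTCNNNGAA. Every ISRE core holds an IRF core. Capitals mark the bases that match the ISRE or IRF core, and each sequence runs 5′ to 3′ on the strand of its gene.

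Isg15, chr4:156200865-156200971, minus strand: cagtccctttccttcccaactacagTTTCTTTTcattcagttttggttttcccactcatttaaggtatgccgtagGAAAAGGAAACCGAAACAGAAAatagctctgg

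Uba7, chr9:107975515-107975557, plus strand: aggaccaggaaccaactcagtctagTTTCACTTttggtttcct

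Isg15 had 3 overlapping ISRE cores, the first from -78 to -69 and the last from -66 to -57 relative to the start site, and an IRF core on the opposite strand from -128 to -121. Uba7 had a single IRF core, on the opposite strand from -27 to -20, and no ISRE core. These positions count from the RefSeq start, and GENCODE places the start of Uba7 further upstream, at 107975505, so that the printed bases lie inside the gene in that annotation. Neither Ube2l6 nor Herc6 had a match to any of the 3 motifs in these 250 bases, and no member with a promoter had a GAS match. Among all 32851 promoters of the same length, 2.98% held an ISRE core, 21.3% an IRF core and 7.02% a GAS. Of 20 other interferon-stimulated genes chosen by name, 13 had a promoter in the table, and 6 of these (46.2%) held an ISRE core, 10 (76.9%) an IRF core and 3 (23.1%) a GAS. A match describes these letters and is no measure of binding.

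Isg15, the modifier itself, was 4.02 (A1), 3.54 (A2) and 2.43 FPKM (A3) in control mice and 63.3 (A4), 8.12 (A5) and 7.26 FPKM (A6) in depleted mice. All 3 depleted mice lay above the highest control mouse, with A5 and A6 close to each other and A4 far above both. Control mice had a mean of 3.33 ± 0.816 FPKM and depleted mice a mean of 26.2 ± 32.1 FPKM (SD, n = 3 for each). Relative to the control mean, Isg15 was 19.0 (A4), 2.44 (A5) and 2.18 times as high (A6). In limma its log2 fold change was 1.98 (SE 0.68, adjusted p = 0.396), with a 95% interval from 0.43 to 3.54, so that it was not called. Without A4 the log2 fold change was 1.02 (SE 0.17, adjusted p = 0.124 in limma), smaller but with a narrower interval, from 0.62 to 1.42. Over all alternatives its adjusted p in limma ran from 0.124 to 0.892. The exact two-sided permutation test gave p = 0.1, the smallest possible. An estimated 44, 55 and 34 fragments lay behind the values of the 3 control mice, and 660, 44 and 61 behind those of A4, A5 and A6. By 95% Poisson intervals, which cover counting error alone and rest on the estimated depth, the lower bounds of A5 (5.96 FPKM) and A6 (5.51 FPKM) were above the upper bound of A1, the highest control mouse, at 5.35 FPKM. No other annotated transcript shared a 75-base window with Isg15, which lies on chromosome 4 of GRCm38 from 156199424 to 156200818. In bulk tissue, more cells that express a gene and more RNA in each of them cannot be told apart, and the same holds for fewer cells and less RNA per cell.

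**Figure D1:**
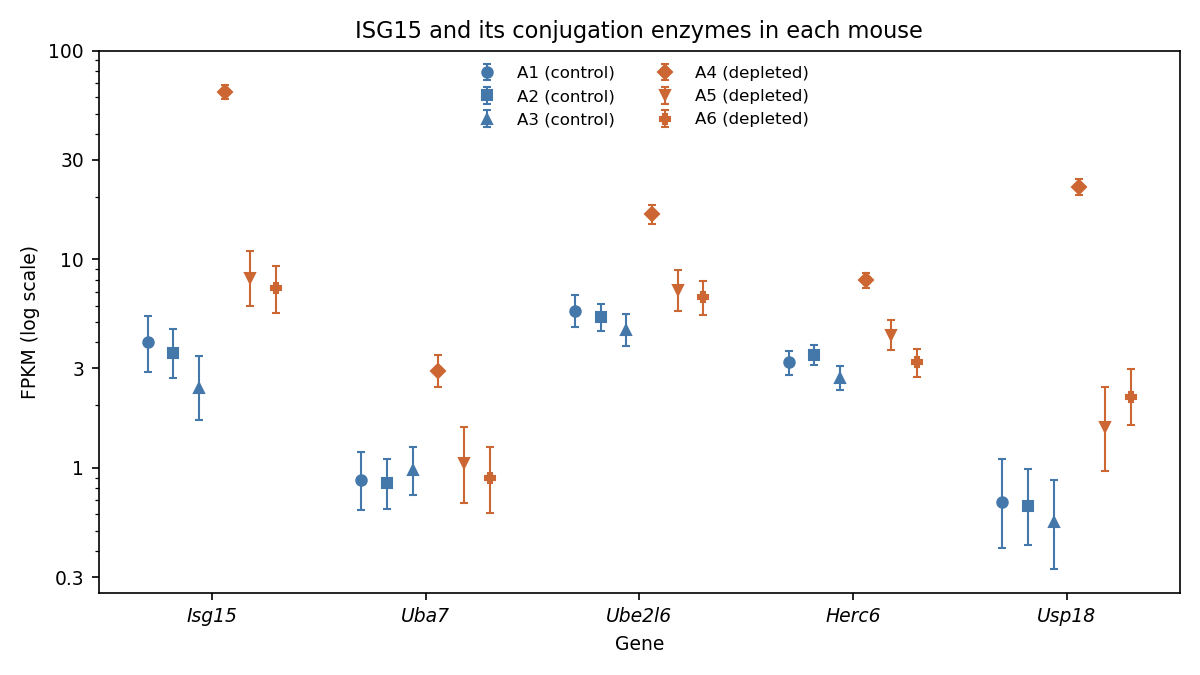
Points give the FPKM of each member in each mouse on a log axis, with control mice in blue and depleted mice in orange, and bars give the 95% Poisson interval of the estimated number of fragments (counting error alone). A4 was the highest mouse for all 5 genes, reaching 63.3 FPKM for Isg15, and A5 and A6 lay above all control mice for Isg15, Ube2l6 and Usp18.

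Uba7, the E1 enzyme, was 0.88 (A1), 0.85 (A2) and 0.98 FPKM (A3) in control mice and 2.92 (A4), 1.06 (A5) and 0.90 FPKM (A6) in depleted mice. The groups overlapped, since A6 lay inside the control range, while A4 was far above it and A5 just above A3. Control mice had a mean of 0.903 ± 0.0681 FPKM and depleted mice a mean of 1.63 ± 1.12 FPKM (SD, n = 3 for each). The log2 fold change was 0.39 (SE 0.27, adjusted p = 0.633 in limma), and without A4 it was 0.056 (SE 0.15, adjusted p = 0.906 in limma, from 0.4 to 0.912 over all alternatives). The exact two-sided permutation test gave p = 0.2. Without A4 the 95% interval ran from -0.29 to 0.40, so that a change of up to 0.40 on the log2 scale would not be told from none at this depth and group size. Uba7 lies on chromosome 9 from 107975505 to 107984060, and 3.97% of its 75-base windows also occur in the overlapping gene Gm20661 on the same strand.

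Ube2l6, the E2 enzyme, was 5.65 (A1), 5.27 (A2) and 4.60 FPKM (A3) in control mice and 16.4 (A4), 7.11 (A5) and 6.58 FPKM (A6) in depleted mice. The groups did not overlap, and A5 and A6 lay just above A1. Control mice had a mean of 5.17 ± 0.532 FPKM and depleted mice a mean of 10.03 ± 5.53 FPKM (SD, n = 3 for each), and A5 and A6 were 1.37 and 1.27 times the control mean against 3.17 times for A4. The log2 fold change was 0.73 (SE 0.29, adjusted p = 0.440 in limma), and without A4 it was 0.35 (SE 0.12, adjusted p = 0.307 in limma, from 0.273 to 0.892 over all alternatives). The exact two-sided permutation test gave p = 0.1. The Poisson interval of A5, from 5.65 to 8.89 FPKM, reached into that of A1, from 4.73 to 6.73 FPKM, and that of A6, from 5.43 to 7.90 FPKM, did so too, so that by counting error alone neither was separated from the highest control mouse. Ube2l6 lies on chromosome 2 from 84798828 to 84810335 and shares 4.44% of its windows with other annotated transcripts.

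Herc6, the E3 ligase, was 3.21 (A1), 3.49 (A2) and 2.71 FPKM (A3) in control mice and 7.94 (A4), 4.34 (A5) and 3.21 FPKM (A6) in depleted mice. The groups overlapped, as A6 had the same value as A1, while A4 and A5 were above all control mice. Control mice had a mean of 3.14 ± 0.395 FPKM and depleted mice a mean of 5.16 ± 2.47 FPKM (SD, n = 3 for each). The log2 fold change was 0.51 (SE 0.25, adjusted p = 0.517 in limma), and without A4 it was 0.20 (SE 0.15, adjusted p = 0.619 in limma, from 0.297 to 0.896 over all alternatives), with a 95% interval from -0.16 to 0.56. The exact two-sided permutation test gave p = 0.3. Herc6 lies on chromosome 6 from 57581000 to 57664632. Of its 75-base windows, 22.4% also occur in Gm45193, an overlapping transcript on the same strand that is not in the table, so that part of the reads counted for Herc6 could stem from it.

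Usp18, the protease, was 0.69 (A1), 0.66 (A2) and 0.55 FPKM (A3) in control mice and 22.2 (A4), 1.58 (A5) and 2.20 FPKM (A6) in depleted mice. The groups did not overlap, and A4 was about an order of magnitude above the other depleted mice. Control mice had a mean of 0.633 ± 0.0737 FPKM and depleted mice a mean of 8.66 ± 11.7 FPKM (SD, n = 3 for each). Relative to the control mean, Usp18 was 35.1 (A4), 2.49 (A5) and 3.47 times as high (A6), the highest ratio of the 5 members in each of the 3 depleted mice. In A5 the ratio of Isg15, at 2.44, was so close that the order of these genes could not be told there. The log2 fold change was 1.82 (SE 0.71, adjusted p = 0.440 in limma), and without A4 it was 0.82 (SE 0.16, adjusted p = 0.170 in limma, from 0.170 to 0.892 over all alternatives). The exact two-sided permutation test gave p = 0.1. These values understate the ratios because Usp18 lay below 1 FPKM in every control mouse. About 18, 24 and 18 fragments lay behind its control values and about 20 behind that of A5, whose Poisson interval from 0.972 to 2.46 FPKM reached below the upper bound of A1, at 1.10 FPKM. The lower bound of A6, at 1.61 FPKM, did not. Usp18 lies on chromosome 6 from 121245906 to 121270917, and the antisense transcript Gm44148 shares 3.06% of its windows. Usp18 and Herc6 are on the chromosome of Gt(ROSA)26Sor, at 8.17 and 55.4 Mb from it. iDTR alleles sit at that locus and were carried by depleted mice alone, so that an effect of the linked chromosome segment and one of the depletion cannot be told apart for these genes.

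In control mice the order of levels was Ube2l6 at a mean of 5.17 FPKM, Isg15 at 3.33, Herc6 at 3.14, Uba7 at 0.903 and Usp18 at 0.633 FPKM. Isg15 and Herc6 did not differ beyond their spread, and the ranges of the other neighbours in this order did not overlap. In each depleted mouse Isg15 ranked first, at the levels given above, ahead of Ube2l6 in A5 and A6 and of Usp18 in A4. The ratio of Isg15 to Ube2l6 was 0.712, 0.672 and 0.528 in the control mice and 3.86, 1.14 and 1.10 in A4, A5 and A6. The value of the modifier was thus below that of its E2 enzyme in every control mouse and above it in every depleted mouse. However, the Poisson intervals of these genes overlapped in A1, A2, A5 and A6, with about 44 and 61 fragments behind Isg15 in A5 and A6. They were apart in A3 and A4 alone.

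No member was called at an adjusted p under 0.1 in limma, against 4 of the 14385 genes tested (0.0278%). The 4 became 2 without A1, 29 without A5 and 8 without A6, and no member was among them in any case. At an unadjusted p under 0.05, 3 of the 5 members, Isg15, Ube2l6 and Usp18, were higher in depleted mice, against 4.79% of all genes tested. The same 3 members had every depleted mouse above every control mouse, which held for 8.21% of all genes. Without A4 these 3 members again had an unadjusted p under 0.05 and were higher in depleted mice, against 5.99% of all genes. A5 and A6 were above every control mouse in the same 3, against 14.5% of all genes. The 5 members were chosen with earlier results of these data known, so that these counts do not test them as a set. The count at an unadjusted p under 0.05 rested on the control mice as well, and it was 1 without A1, 1 without A2 and 0 without A3. Without A3 the log2 fold changes were 1.83 for Isg15, 0.41 for Uba7, 0.66 for Ube2l6, 0.43 for Herc6 and 1.78 for Usp18. With A6 left out, the groups did not overlap in any of the 5 members. The median log2 fold change of the members was 0.73, or 0.35 without A4, against -0.0085 and -0.0083 for all genes tested. Relative to the control mean, the median of the members in single mice was 1.50 (A4), 0.40 (A5) and 0.30 (A6) on the log2 scale.

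Isg15 was then set against each enzyme within the same mouse. The difference between Isg15 and Uba7 in log2(FPKM + 1) was larger in every depleted than in every control mouse, by 1.60 on average and by 0.96 without A4. For Ube2l6 the corresponding value was 1.25, or 0.67 without A4, and for Herc6 it was 1.48, or 0.82 without A4, and here too all 3 depleted mice were above all control mice. In these 3 comparisons the exact two-sided permutation test gave p = 0.1, the smallest possible. Against Usp18 the value was 0.16 (exact two-sided permutation test, p = 0.5), with 1 of the 3 depleted mice above all control mice, and its direction turned with a pseudocount of 0.1 (-0.38) and with rescaling to TPM (-0.11). The modifier and its protease thus could not be ordered by their change, while Isg15 was further above its control level than the E1, E2 and E3 genes in each depleted mouse.

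Each member was also compared with the other genes of its own protein family. Most of these serve ubiquitin and other modifiers and are not known as interferon-stimulated. E2 genes were taken by symbol, as all that start with Ube2, so that Ube2cbp, which need not be an E2 enzyme, was counted among them. Isg15 was set against 18 other ubiquitin-like modifiers, and none of them had as large a log2 fold change, the largest being 0.28. Usp18 was likewise above all 44 other USP proteases tested, which reached 0.26 at most, and Ube2l6 above all 32 other E2 genes, which reached 0.29. With A4 left out, these 3 members remained above every other gene of their families, and Herc6, at 0.20, was above Herc1 to Herc4. Uba7 was above all 9 other E1 genes with A4 included, whereas without A4 its value of 0.056 was exceeded by 2 of them. Relative to the median of its family in the same mouse, the difference of the changes was 1.95 for Isg15, 1.82 for Usp18 and 0.70 for Ube2l6, with no overlap between the groups, and the exact two-sided permutation test gave p = 0.1 in all 3. It was 0.41 for Herc6 (exact two-sided permutation test, p = 0.3) and 0.19 for Uba7 (exact two-sided permutation test, p = 0.8). Without A4 these values were 0.98 for Isg15, 0.80 for Usp18, 0.32 for Ube2l6, 0.16 for Herc6 and -0.099 for Uba7.

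**Figure D2:**
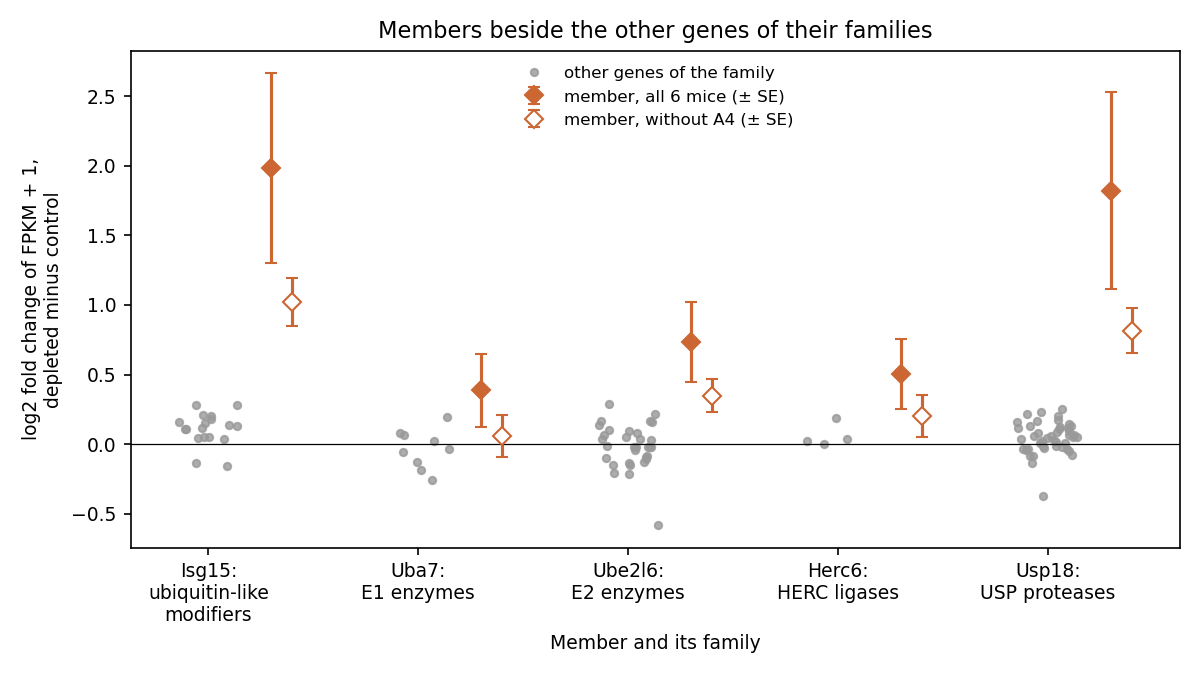
Grey points give the log2 fold change, depleted minus control on the log2(FPKM + 1) scale, of every other gene tested in the family of each member, and diamonds give the member over all 6 mice (filled) or without A4 (open), with bars of 1 SE. The other genes of the 5 families lay between -0.58 and 0.29, and Isg15 and Usp18 lay above 0.8 with and without A4.

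The medians of the families lay between -0.038 and 0.12, and the median control level of each family was far above that of its member. This did not hold for every single gene, since Ube2c, at a control mean of 1.07 FPKM, lay below Ube2l6, at 5.17 FPKM. The median control level was 162 FPKM for the other modifiers, against 3.33 FPKM for Isg15. Ubb, which encodes polyubiquitin, was 1209 (A1), 1054 (A2) and 1176 FPKM (A3) in control mice and 1212 (A4), 1130 (A5) and 1211 FPKM (A6) in depleted mice, with overlapping groups, and it shares 56.8% of its 75-base windows with Gm1821. Ube2l3, the closest paralog of Ube2l6 and an E2 enzyme of ubiquitin, was 72.7, 66.6 and 70.2 FPKM in control and 77.8, 71.3 and 74.6 FPKM in depleted mice. Its groups overlapped, and its log2 fold change was 0.093. Uba1, the E1 enzyme of ubiquitin, was between 91.8 and 94.0 FPKM in the mice other than A4, where it was 112 FPKM. Herc3 was between 34.9 and 40.0 FPKM in all 6 mice, with overlapping groups.

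In the family lists, medians were small, with mixed directions among the E1 and E2 genes and more genes higher than lower among the others. Of the 9 other E1 genes 4 were higher in depleted mice, with a median log2 fold change of -0.038, and an unadjusted p under 0.05 was reached by Nae1 at 0.19 and by Atg7 at -0.26. Of the 32 other E2 genes 14 were higher, with a median of -0.019, and the genes at the ends were Ube2r2 at 0.29 and Ube2c at -0.58, both at an unadjusted p under 0.05. All 4 HERC genes were higher by little, from 0.0022 for Herc2 to 0.19 for Herc1. Of the 44 USP genes 30 were higher, with a median of 0.052, from Usp43 at -0.38 to Usp1 at 0.26, and Usp47, at 0.23, had an unadjusted p under 0.05. Of the 18 modifiers 16 were higher, with a median of 0.12, from Map1lc3a at -0.16 to Rps27a at 0.28, and Rps27a and Ufm1, the latter at 0.20, were among those with an unadjusted p under 0.05. Rps27a shares 70.7% of its 75-base windows with other annotated transcripts. The modifier Ubd, another ubiquitin-like protein induced by cytokines, was listed at 0 in 5 mice and at 0.08 FPKM in A4. Over all genes tested, 6907 of 14385 (48.0%) were higher in depleted mice. Without A4 the medians were -0.014 (E1), -0.0039 (E2), 0.017 (HERC), 0.034 (USP) and 0.10 (modifiers), with 3, 16, 3, 27 and 14 genes higher. At an unadjusted p under 0.05, 0 E1 genes were then higher and 3 lower, 2 E2 genes higher and 2 lower, 2 USP genes higher and 0 lower, and 5 modifiers higher and 1 lower, against 861 higher and 1034 lower of all 14385 genes tested.

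Of 8 other ligases and proteases reported to act on ISG15, 5 were higher, with a median log2 fold change of 0.042 (0.074 without A4), and 0 had an unadjusted p under 0.05. Trim25, a ligase that can also use ISG15, had the largest value, at 0.50, which was 0.11 without A4. Its levels were 1.32, 1.16 and 1.47 FPKM in control and 4.61, 1.10 and 1.97 FPKM in depleted mice, so that A5 was the lowest of all 6 mice and the groups overlapped. The smallest value was that of Usp16, at -0.043.

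Of 8 genes for proteins that are known to be modified by ISG15 in the antiviral response, 6 were higher, 3 of them at an unadjusted p under 0.05, against 48.0% and 4.79% of all genes tested. Their median log2 fold change was 0.77, and it was 0.23 without A4 and 1.17 without A6. Among the 3 were Ifit1, at 2.13 (1.24 without A4), and Mx1, at 1.45 (0.79 without A4). The transcription factor Irf3 had the smallest value, at -0.37. It was 9.30, 9.16 and 10.9 FPKM in control and 5.39, 7.87 and 9.21 FPKM in depleted mice, with overlapping groups.

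In the interferon receptor pathway that USP18 limits, values were small for the receptors and kinases and larger for several downstream factors. Ifnar1, Ifnar2, Tyk2 and Jak1 had log2 fold changes from -0.022 for Jak1 to 0.068 for Ifnar2. Ifnar2, the subunit to which USP18 binds, was 9.48, 10.7 and 10.99 FPKM in control and 13.0, 9.93 and 10.1 FPKM in depleted mice, with overlapping groups. Irf7 at 2.12, Irf9 at 1.04 and Stat2 at 0.75 all had an unadjusted p under 0.05 and every depleted mouse above every control mouse. Without A4 their values were 1.30, 0.51 and 0.42. The list of 8 had a median of 0.41, or 0.24 without A4.

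For the receptor of secreted ISG15, the integrin LFA-1, and the cytokines released on its engagement, little RNA was present. Itgb2 alone passed the filter, with a log2 fold change of 0.10 that turned to -0.059 without A4. Itgal was at most 0.28 FPKM, Ifng was listed at 0 in every mouse, and Il10 was listed at 0 in 5 mice and at 0.22 FPKM in A4.

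A list of 20 other interferon-stimulated genes stood beside the members. Like the other lists, it was chosen with earlier results of these data known and was not tested as a set. All 20 were higher in depleted mice, 12 at an unadjusted p under 0.05 and 17 with every depleted mouse above every control mouse, against 4.79% and 8.21% of all genes tested, and 0 were called at an adjusted p under 0.1 in limma. Their median log2 fold change was 1.18, from Dhx58 at 0.56 to Ifit3 at 2.30, and 0.57 without A4, when 20 were again higher and 12 again had an unadjusted p under 0.05. It was 1.93 with a pseudocount of 0.1 and 1.61 after rescaling to TPM, where low values weigh more. The lowest unadjusted p-values were those of Ifit3, Bst2, Oas1a, Mx2 and Ifi27l2a. Relative to the control mean the list had a median of 2.60 (A4), 0.40 (A5) and 0.74 (A6). Isg15 and Usp18 lay above the median of these genes and Uba7, Ube2l6 and Herc6 below it, with and without A4. Oas1a shares 47.6% of its windows with Oas1g.

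**Figure D3:**
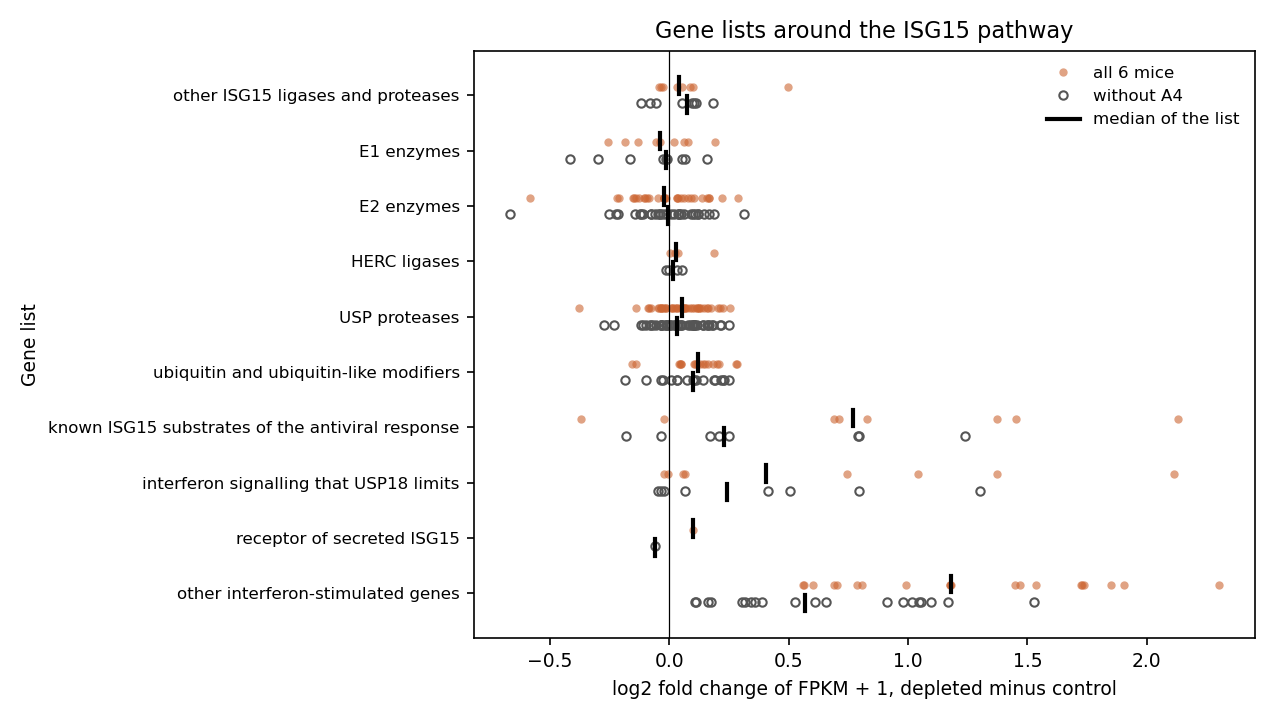
Each row is a list of genes, with the log2 fold change, depleted minus control on the log2(FPKM + 1) scale, of each gene tested over all 6 mice (filled) and without A4 (open), and a black bar at the median. The enzyme and modifier families centred near 0, and the 20 other interferon-stimulated genes had a median of 1.18 with A4 and 0.57 without it.

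The pattern of Isg15 over the 6 mice was compared with that of every gene tested, by the root mean square difference in log2(FPKM + 1) relative to the control mean. The 8 nearest genes outside the members were Ifit1, Oasl2, Irf7, Ifi27l2a, Ccl12, Ifit3, I830012O16Rik and Mx2, from 0.14 for Ifit1 to 0.40 for Mx2. Ifit1 was 2.17 (A1), 1.45 (A2) and 1.00 FPKM (A3) in control mice and 36.7 (A4), 5.06 (A5) and 4.73 FPKM (A6) in depleted mice, and like Isg15 it was highest in A4 with A5 and A6 at nearly the same level. I830012O16Rik, named Ifit3b in current annotation, and Ifit3 share 35.7% of the windows of Ifit3b, so that their reads could be split between them. Among the members, Usp18 was nearest to Isg15, at 0.22, while Uba7, Ube2l6 and Herc6 were at 1.31, 1.06 and 1.24. These last 3 were close to one another, at 0.16 for Uba7 and Herc6, 0.20 for Ube2l6 and Herc6, and 0.27 for Uba7 and Ube2l6. These distances rest mostly on A4. On this scale Usp18 in A5 lay nearer to Ube2l6 than to Isg15, at 0.66 above its control mean against 0.40 and 1.09. As plain ratios to the control mean this turned, with Usp18 at 2.49, Isg15 at 2.44 and Ube2l6 at 1.37. In A6, on the log2 scale, Usp18 lay nearest to Isg15, at 0.97 against 0.95.

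The mean profile of the 5 members was nearest to Irf9, at 0.12, followed by Irgm1, Oas1b, C4b, Gbp2, Gbp5, Igtp and Trim30d, the last at 0.21. Irf9, a subunit of the factor that binds the ISRE, was 5.56 (A1), 4.56 (A2) and 4.90 FPKM (A3) in control mice and 24.95 (A4), 7.17 (A5) and 7.88 FPKM (A6) in depleted mice. Its groups did not overlap. C4b, a complement component, was 6.12, 4.59 and 5.56 FPKM in control and 28.0, 9.59 and 9.47 FPKM in depleted mice, again without overlap, and it shares 23.5% of its windows with C4a.

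**Figure D4:**
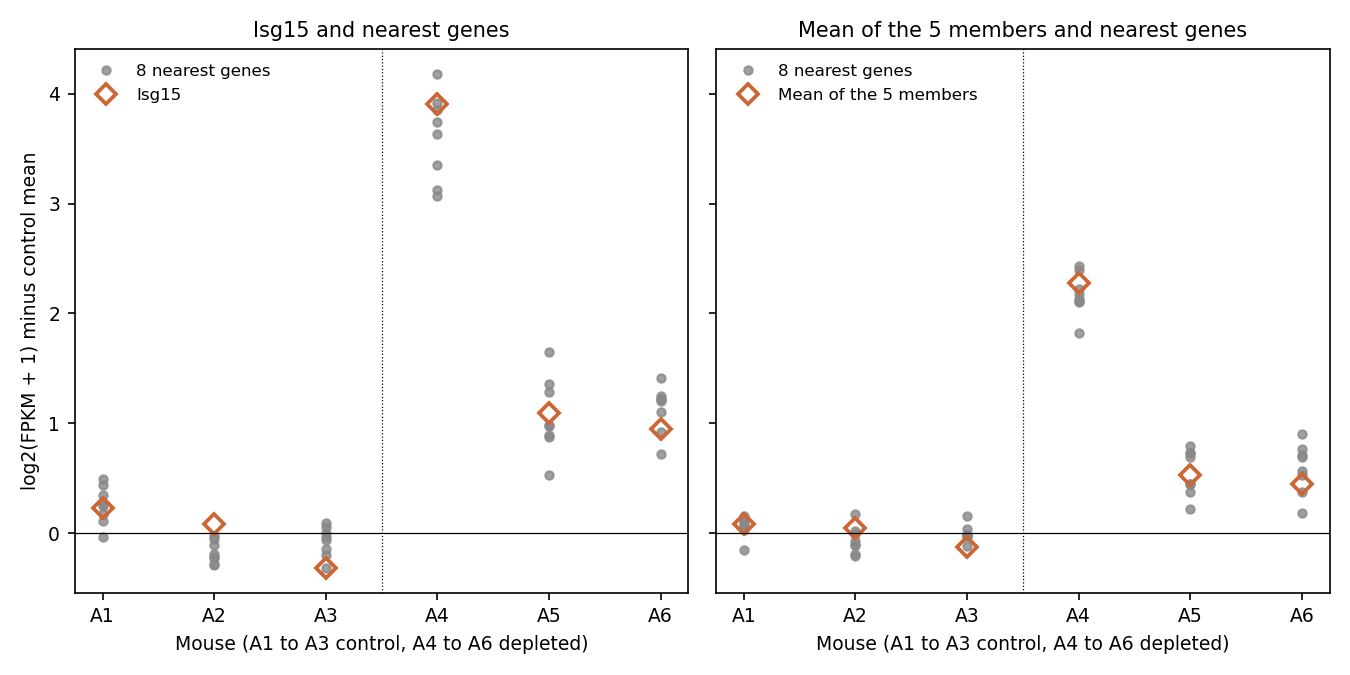
Points give log2(FPKM + 1) minus the control mean in each mouse for the 8 genes nearest to Isg15 (left) and to the mean of the 5 members (right), and diamonds give Isg15 and that mean. In both panels A4 lay highest, at 3.91 for Isg15, with A5 and A6 above the control mice, at 1.09 and 0.95 for Isg15.

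Markers of several cell types differed between the same mice, and their part in the members' values was not tested. Of 8 microglia markers 5 were higher in depleted mice, and those with an unadjusted p under 0.05 included Aif1, which was higher, and P2ry12 and Fcrls, which were lower. Their summed level was 115 (A1), 94.5 (A2) and 105 FPKM (A3) in control mice and 128 (A4), 96.6 (A5) and 119 FPKM (A6) in depleted mice, with overlapping groups, and none was at 0 in any mouse. Thus microglia RNA was present in every depleted mouse at d10. Of 4 astrocyte markers only Gfap was higher, at 88.3, 64.5 and 84.2 FPKM in control and 300.3, 108.5 and 120.1 FPKM in depleted mice, and Slc1a3, the most abundant in all mice but A4, was between 134 and 152 FPKM in all 6 mice. The astrocyte markers summed to 302, 249.8 and 279 FPKM in control and 482, 304 and 304 FPKM in depleted mice. No astrocyte marker was at 0. The sum was highest in A4 through Gfap alone, since Aqp4 and Aldh1l1 were lower in A4 than in any other mouse. Slc1a3 in A4 lay within the range of the other mice.

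Markers of infiltrating cells were at low levels, and some were highest in A4. The 7 markers of monocytes and border macrophages summed to 4.13, 3.96 and 3.24 FPKM in control and 8.58, 4.28 and 3.44 FPKM in depleted mice. Of the 4 that were tested 3 were higher, with Ly6c2 at an unadjusted p under 0.05. Lyve1 had the highest mean of the 7 over all 6 mice, and Ccr2 was at most 0.24 FPKM. Plac8 was 2.28 FPKM in A4 and at most 0.49 FPKM elsewhere, with 0 in A3, A5 and A6. The 6 T cell markers summed to 2.72, 3.46 and 3.29 FPKM in control and 3.98, 2.36 and 2.82 FPKM in depleted mice, led by Cd4, which was not higher. Cd3e was listed at 0 in all 3 depleted mice, while A4 had the highest Cd3d, at 1.08 FPKM against at most 0.13, and the highest Cd3g, at 0.42 FPKM against at most 0.05. For B cells, Ms4a1 was listed at 0 in every mouse, as was Ncr1 for natural killer cells, while the B cell gene Cd79a was 0.56, 0.15 and 0.16 FPKM in control and 0.71, 0.21 and 0 FPKM in depleted mice, with overlapping groups. Siglech, a marker of plasmacytoid dendritic cells that microglia also express, was 5.05, 4.02 and 4.97 FPKM in control and 5.38, 6.05 and 5.61 FPKM in depleted mice, without overlap. The 2 neutrophil markers in the table, S100a8 and S100a9, summed to 4.18, 2.61 and 2.77 FPKM in control and 1.04, 6.12 and 0.63 FPKM in depleted mice, so that A4 was not high, and S100a9 was lower at -0.64 with an unadjusted p under 0.05.

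Among resident cells, the 3 endothelial markers were all higher in depleted mice, with Cldn5 at an unadjusted p under 0.05, and summed to 10.4, 11.7 and 11.9 FPKM in control and 14.2, 13.3 and 15.5 FPKM in depleted mice, without overlap. The 4 oligodendrocyte markers were all lower, with Mbp, the most abundant, at an unadjusted p under 0.05, and their sums did not overlap, at 2878, 2673 and 2644 FPKM against 2387, 2322 and 2390.0 FPKM. The 4 choroid plexus markers were all lower too, 2 of them at an unadjusted p under 0.05, and summed to 178, 320.4 and 164 FPKM in control and 67.9, 42.9 and 63.2 FPKM in depleted mice, which did not overlap. Of the 4 neuron markers 2 were higher, and of the 5 projection neuron markers 1 was higher, with overlapping sums in both, and Neurod6 was lower at -0.32 with an unadjusted p under 0.05. The part of any of these cell types in the values of Isg15 and its enzymes was not tested.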

How the data were processed

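Cortical RNA of 3 depleted and 3 control mice was sequenced, with 1 library per mouse grouped by its label. The authors selected poly(A) RNA, sequenced 75-base paired reads and deposited FPKM values, TMM-scaled and given to 2 decimals; the submitters' processing notes name TopHat, RSEM, DESeq and mm9, with no versions. FPKM + 1 was taken to log2, genes with a mean under 0.5 FPKM were left out, and 14385 genes were fitted with limma 3.58.1 in R 4.3.3 (lmFit, eBayes with trend, no covariate) with Benjamini-Hochberg adjustment over all of them. The fit was tested on simulated data. Single values were compared by exact two-sided permutation over the mice. The members and the lists were chosen with earlier results of these data known, and no list was tested.

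Genes were named by a rule: the members, the 8 nearest profiles, the ends of each list and up to 5 of its genes with the lowest unadjusted p under 0.05, and Ube2l3, Uba1, Herc3, Ubb and Trim25. Genes outside this rule, such as Ubd, Ifnar2, the cell type markers and the sex-linked genes, were added with their values known. Positions and 75-base windows came from GENCODE M21 (GRCm38) by symbol, and promoters from RefSeq (GRCm38.p6), so that mm9 coordinates were not used. Depth was estimated from 2332 genes with a single transcript of 400 to 2000 bases, whose low FPKM values are multiples of 1 fragment; the estimate is approximate. The alternatives tried were array weights, eBayes without the trend or robust, no filter or one at 1 FPKM, a pseudocount of 0.1, rescaling to TPM, by median of ratios or by quantiles, a threshold of 0.05 and each mouse left out in turn. Those for the medians of the lists were chosen after seeing the data. Other steps used scipy 1.17.1, pandas 2.3.3, numpy 2.4.6 and matplotlib 3.10.9 in Python 3.11.15.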

Additional observations from a re-analysis of the deposited data

How the results depend on the processing

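All 5 members were higher in depleted mice under all 16 alternatives, of which the threshold of 0.05 needs no new fit, and none was called at an adjusted p under 0.1 in limma in any of them. With 1 mouse left out, the log2 fold change ran from 1.02 to 2.50 for Isg15, from 0.82 to 2.40 for Usp18, from 0.35 to 0.95 for Ube2l6, from 0.20 to 0.74 for Herc6 and from 0.056 to 0.58 for Uba7, each lowest without A4. The 4 called genes became 2 without the trend, 20 with array weights and from 2 to 29 with 1 mouse left out. Members at an unadjusted p under 0.05 numbered 1 with no filter, 1 with robust eBayes and from 0 to 4 with 1 mouse left out, and members with groups that do not overlap from 3 to 5. The change of Isg15 against Usp18 turned to -0.38 with a pseudocount of 0.1 and to -0.11 with TPM, which by construction weigh low values more, and ran from 0.029 to 0.26 with 1 mouse left out. Uba7 against its family ran from -0.099 to 0.40. The medians of the other E2 and USP genes ran from -0.035 to 0.013 and from 0.022 to 0.059. That of the other interferon-stimulated genes was 1.93 with a pseudocount of 0.1 and 1.61 with TPM. No scaling moved the median of all genes by as much as 0.01. Depth limits Usp18 and Uba7 most, with about 20 and 24 fragments in A5.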
